A study of Mus musculus with 6 samples.

Results

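Tuba1a, Tubb3, Tubb5, Map1b, Map2, Mapt and Dcx, 7 genes of the neuronal microtubule cytoskeleton, were followed in the cerebellum of mice lacking L1cam. They are 7 of the 8251 genes that the array annotation names alone on at least 1 probe set. All probe sets with one of the 7 as their only symbol were taken, 12 of the 12422 that are not array controls. Mapt had 3 probe sets, Tuba1a, Tubb3 and Tubb5 had 2 each, and Map1b, Map2 and Dcx had 1 each. One further probe set lists Tuba1a among several alpha-tubulin genes and was not a member. Expression was measured at postnatal day 11 in 3 L1CAM knockout mice (-/Y, labelled male) and in 3 wild type siblings whose sex the labels do not give. Both groups are of strain 129S2/SvPasCrlf, and the design text calls the knockouts congenic on 129Sv. The labels name no conditional allele, and the altered part of the gene is not given in the sources used here. Each mouse had 1 array, and the deposited values are on the log2 scale, processed by the authors with RMA.

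Microtubules are hollow polymers of alpha- and beta-tubulin pairs, and in neurons they carry transport along axons and dendrites and support the advance of growth cones and the migration of young neurons. Microtubule-associated proteins bind along the polymer and stabilise or bundle it, with Map2 characteristic of dendrites and tau, the product of Mapt, of axons. L1cam is an adhesion molecule of growing axons that links to the cytoskeleton beneath the membrane. At postnatal day 11 cerebellar granule neurons are still being born, migrating and extending parallel fibres.

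The promoters of the 3 tubulin genes are shown because these genes encode the subunits of the polymer and because both beta-tubulin genes, Tubb3 and Tubb5, had higher knockout means at every probe set. Each sequence is the 250 bases before the annotated start, 5′ to 3′ on the gene's strand, from RefSeq in build GRCm38.p6, and capitals mark matches to TATAA searched on both strands. The Tuba1a promoter lies at chr15:98953502-98953751 on the minus strand, that of Tubb3 at chr8:123411303-123411552 on the plus strand, and that of Tubb5 at chr17:35838302-35838551 on the minus strand.
Tuba1a: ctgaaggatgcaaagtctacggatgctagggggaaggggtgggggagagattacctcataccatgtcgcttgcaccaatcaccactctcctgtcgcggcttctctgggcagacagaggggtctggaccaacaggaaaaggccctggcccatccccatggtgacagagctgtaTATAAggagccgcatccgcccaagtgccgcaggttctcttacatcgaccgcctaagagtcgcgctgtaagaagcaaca
Tubb3: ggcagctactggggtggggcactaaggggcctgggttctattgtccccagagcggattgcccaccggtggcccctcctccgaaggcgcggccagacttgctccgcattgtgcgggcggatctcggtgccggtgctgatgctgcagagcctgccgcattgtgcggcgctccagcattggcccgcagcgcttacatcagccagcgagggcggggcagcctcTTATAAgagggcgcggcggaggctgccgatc
Tubb5: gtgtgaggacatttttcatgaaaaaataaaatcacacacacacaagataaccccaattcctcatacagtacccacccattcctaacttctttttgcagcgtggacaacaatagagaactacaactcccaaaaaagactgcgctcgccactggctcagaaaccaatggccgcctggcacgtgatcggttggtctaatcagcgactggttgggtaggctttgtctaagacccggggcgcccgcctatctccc
Tuba1a held 1 match, whose first base lay at -78 from the start. Tubb3 held 2 that overlap, one on each strand, the nearer at -30. Tubb5 held none in this window. Of 32851 promoters of the same length, 22.8% held the motif. The GC content was 56.8% for Tuba1a, 68% for Tubb3 and 49.2% for Tubb5, against a median of 52.4% over all promoters. A match is a description of the letters and not a bound site.

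The arrays were alike in scale, with medians from 8.87 to 8.94 and correlations between arrays from 0.9948 to 0.9974. By their brightest probe set, 7 of 9 granule neuron markers lay above the median level, with Zic1 and Cbln1 at percentiles 99.7 and 98.8 of mean level. So did 5 of 7 Purkinje cell markers, with Pcp2 and Calb1 at 98.8 and 96.7. Below the median lay Atoh1 (45.5) and Meis1 (31.1) of granule neurons, and Pcp4 (11.4) and Pcp4l1 (47.0) of Purkinje cells. L1cam, the targeted gene, read 8.25, 8.01 and 7.91 in knockouts 1 to 3, against 8.79, 8.48 and 8.73 in wild types 1 to 3. The groups did not overlap, and the difference was -0.60 (SE 0.10), with a limma adjusted p of 0.841. The library labelled knockout 1 stood apart in other respects. For the Gapdh array control, the signal at the 3′ end exceeded that at the 5′ end by 0.67 there, a gap that widens when RNA is shorter or degraded, against 0.043 and 0.13 in the other knockouts and from -0.048 to 0.125 in wild type. Of the other 3 controls, the Actb gap was also widest there (1.09, against at most 0.95 elsewhere), that of pyruvate carboxylase was 0.88, close to 0.85 in wild type 1, and that of the transferrin receptor was widest in knockout 3 (1.48, against 1.33 in knockout 1). The Y-linked gene Eif2s3y read 7.11 in knockout 1, against at least 8.72 in the other knockouts and 8.59 in wild types, and Uty read 6.67, against at least 7.32 in the others. The label gives the mouse as male. Kdm5d, also Y-linked and as dim as Uty (percentiles 20.7 and 20.4 of mean level), read 7.22, level with the lowest of the other arrays. Xist was no higher there than elsewhere, but it was dim on every array (percentile 8.39). Whether its probe set registers Xist was not tested. Member results are also given without knockout 1.

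None of the 12 members was past the threshold in limma (adjusted p of 0.05), and neither was any other probe set (0%). One member, a Tubb3 probe set higher in knockouts, had an unadjusted p under 0.05, as did 5.08% of all probe sets (2.46% higher and 2.62% lower in knockouts). Its p was over 0.05 without knockout 1, wild type 2 or wild type 3. The knockout mean was the higher one in 7 members and the lower one in 5, beside 37.7% higher and 62.3% lower over all probe sets. The median member difference was 0.040, and the median over all probe sets was -0.023. In 1 member, a Mapt probe set, the groups did not overlap, beside 10.4% of all probe sets (3.76% higher and 6.63% lower in knockouts). The 95% intervals lay between -0.46 and 0.40, so for 11 members a difference of more than 1.38-fold in either direction lay outside them. The exception is Tuba1a 100342_i_at, which stood near the top of the scale and whose interval cannot bound an increase. All intervals bound the array signal, which may understate a change of transcript, and by how much was not tested. The tubulin members carry suffixes, explained below, under which probes may match related genes. Tuba1a 100343_f_at lay at most 0.63 below the highest value on its array. Map1b was dim (percentile 28.1 of mean level) and has no stated background. The intervals rest on the spread between mice of a group, which limma moderates with the spread over all probe sets. For members with little spread of their own, such as Mapt 102743_at (residual SD 0.031, SE 0.058), the moderation widens the interval.

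**Figure D1:**
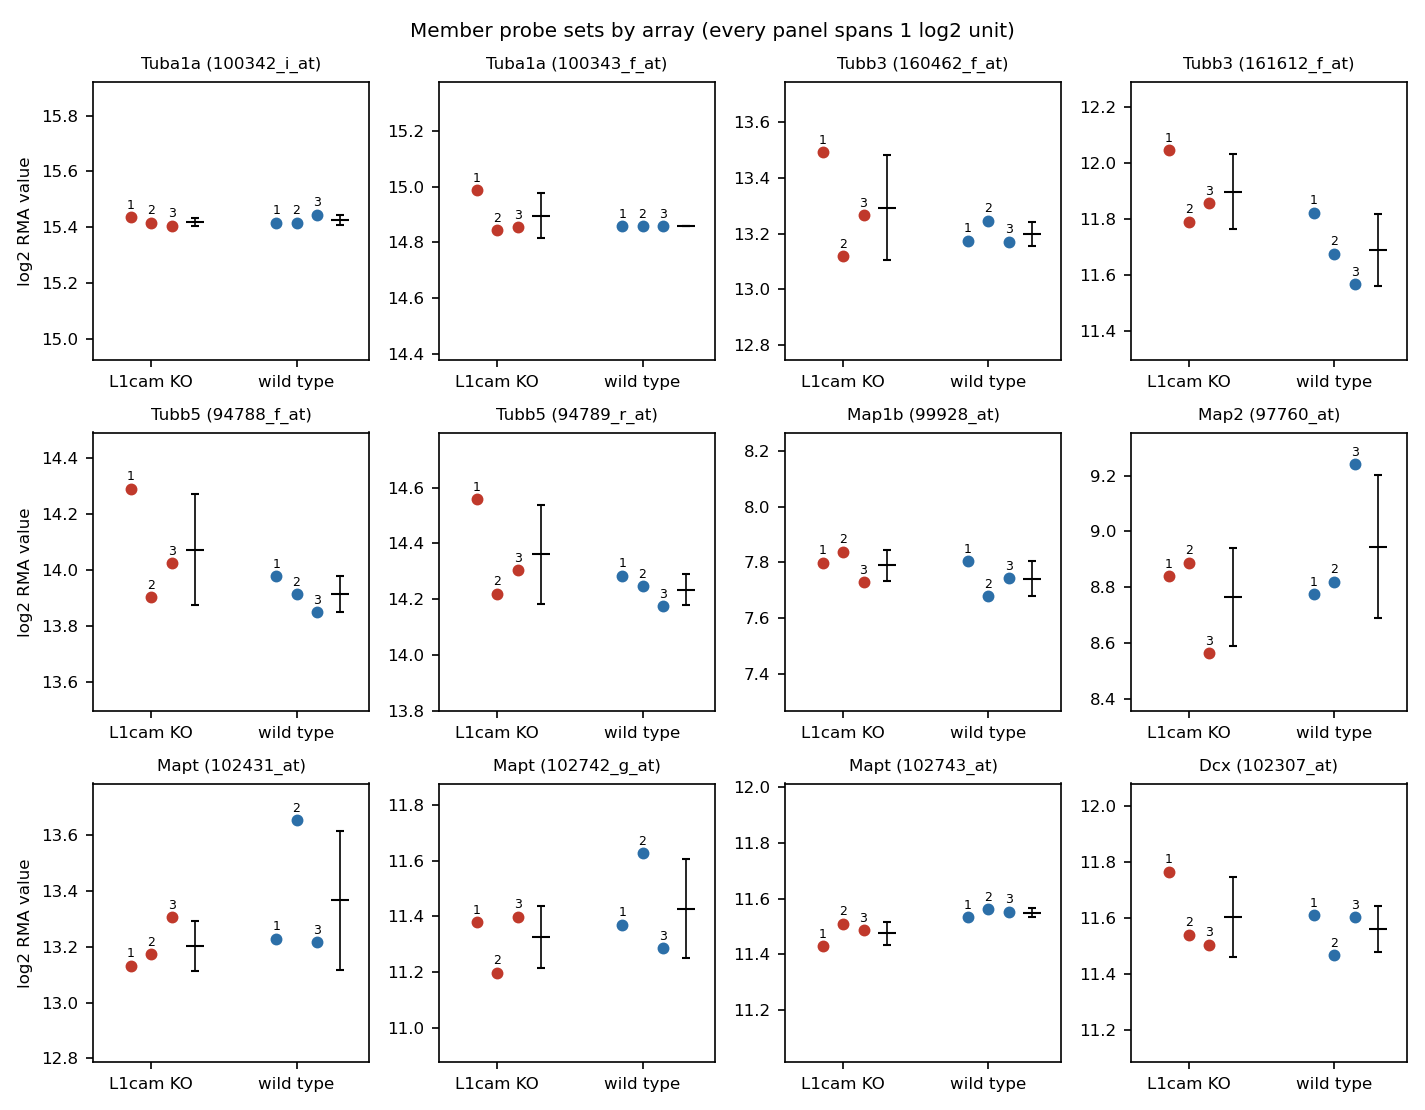
Log2 RMA values of the 12 member probe sets, 1 panel each, in L1cam knockouts (red, left) and wild types (blue, right). Numbered points are mice, bars give mean and SD (n = 3), and every panel spans 1 log2 unit. Knockout 1 is the highest array in all 4 Tubb3 and Tubb5 panels, and wild type 2 is the highest in all 3 Mapt panels.

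Tuba1a encodes the alpha-tubulin most abundant in developing neurons. Its probe set 100342_i_at read 15.44, 15.42 and 15.41 in knockouts 1 to 3, against 15.42, 15.42 and 15.44 in wild types 1 to 3. The values spanned 0.039 log2 units across both genotypes, and the difference was -0.0062 (95% interval -0.13 to 0.12). This signal stood at most 0.068 below the highest value on its array, 15.47 on all arrays, so little room was left to register an increase. Its residual SD was at percentile 0.346 of all probe sets, and its difference without knockout 1 was -0.015. The second probe set, 100343_f_at, read 14.99, 14.84 and 14.85 in knockouts, against 14.86, 14.86 and 14.86 in wild types. Only knockout 1 left the common level there, and the difference of 0.037 (SE 0.063) was -0.0098 without that array.

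Tubb3 is the beta-tubulin isotype specific to neurons and is widely used to mark them. Probe set 161612_f_at read 12.05, 11.79 and 11.86 in knockouts 1 to 3, against 11.82, 11.68 and 11.57 in wild types 1 to 3. Knockouts 1 and 3 lay above every wild type, and knockout 2 lay below wild type 1, so the groups overlapped. The means were 11.90 ± 0.13 in knockouts and 11.69 ± 0.13 in wild types (SD, n = 3 each). The difference of 0.21 (95% interval 0.016 to 0.40), or 1.16-fold, was the largest in size of any member and had a limma adjusted p of 0.922. The unadjusted limma p of 0.037 was 0.153 without knockout 1, 0.081 without wild type 2 and 0.145 without wild type 3. It was 0.020 without knockout 2, 0.049 without knockout 3 and 0.013 without wild type 1. After quantile normalization it was 0.068, and for the mean of both Tubb3 probe sets 0.091. After median centring it was 0.024, and with the replicate number as a block 0.016. The other Tubb3 probe set, 160462_f_at, read 13.49, 13.12 and 13.27 in knockouts, against 13.18, 13.25 and 13.17 in wild types. Here knockout 2 was the lowest of the 6 arrays and knockout 1 the highest. Its difference was 0.095 (95% interval -0.10 to 0.29), with a limma adjusted p of 0.932.

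Tubb5 encodes a beta-tubulin expressed widely, including in dividing progenitors. Probe set 94788_f_at read 14.29, 13.90 and 14.03 in knockouts 1 to 3, against 13.98, 13.91 and 13.85 in wild types 1 to 3. Probe set 94789_r_at read 14.56, 14.22 and 14.30 in knockouts, against 14.28, 14.25 and 14.17 in wild types. Both put knockout 1 highest, and in both the other knockouts lay among or just above the wild types. The differences were 0.16 (95% interval -0.050 to 0.37) and 0.13 (95% interval -0.068 to 0.32), each with a limma adjusted p of 0.927.

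The 4 beta-tubulin probe sets shared the position of knockout 1. As the median of the 4, this array lay 0.26 above the mean of 6 arrays, against -0.085 and 0.027 in knockouts 2 and 3 and from -0.13 to -0.014 in wild types. Without knockout 1 the Tubb5 differences were 0.050 and 0.027, and the Tubb3 differences were 0.14 at 161612_f_at and -0.0040 at 160462_f_at. By the array maker's naming, suffixes f, i and r mark probe sets whose probes match several members of a gene family, are fewer than usual or were chosen under relaxed rules. All 6 tubulin members carry such a suffix, so the probe sets may share target transcripts and do not count as separate evidence. Knockout 1 also had the highest median deviation of the 6 arrays for cell cycle markers and the lowest for oligodendrocyte markers. These 2 lists were picked from several after their values were seen. Wild type 1 was next highest for cell cycle markers and next lowest for oligodendrocyte markers, so the position was not particular to knockout 1. In both genotypes the cell cycle deviation fell, and the oligodendrocyte deviation rose, from replicate 1 to 3. Whether the replicate numbers mark a shared source was not tested. The median deviation of 11 cell cycle markers was 0.20 in knockout 1, against -0.0083 and -0.086 in knockouts 2 and 3 and from -0.13 to 0.11 in wild types, and their mean level ran from 9.91 to 10.17 in knockouts and from 9.91 to 10.13 in wild types. For 8 oligodendrocyte markers the deviation was -0.25 in knockout 1, against -0.016 and 0.084 in the other knockouts and from -0.092 to 0.17 in wild types, and their mean level ran from 10.23 to 10.63 in knockouts and from 10.45 to 10.74 in wild types. The part of these markers, and of the Gapdh gap, in the tubulin values was not tested. In tissue RNA of this kind, fewer cells of a type and less RNA per cell cannot be told apart.

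**Figure D2:**
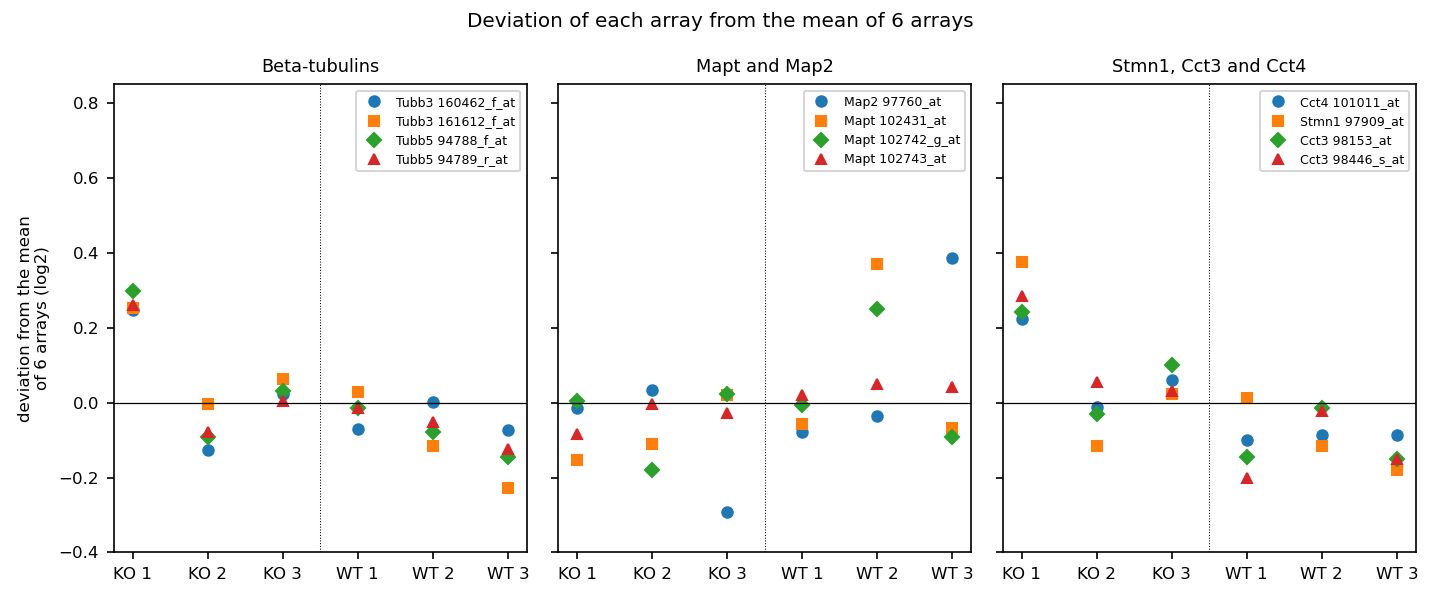
Deviation of each array from the mean of 6 arrays (log2, y axis) for single probe sets, knockouts left and wild types right of the dotted line. The beta-tubulins, Stmn1 97909_at and the 3 probe sets of Cct3 and Cct4 with the lowest p have their highest value in knockout 1. Mapt is highest in wild type 2, and Map2 is highest in wild type 3.

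Mapt encodes tau, which stabilises axonal microtubules. Its probe set 102431_at read 13.13, 13.17 and 13.31 in knockouts 1 to 3, against 13.23, 13.65 and 13.22 in wild types 1 to 3. Wild type 2 stood above the other 5 arrays, which overlapped between genotypes. The difference was -0.16 (95% interval -0.41 to 0.084), with a limma adjusted p of 0.927, and it was -0.019 without wild type 2 and -0.13 without knockout 1. Probe set 102742_g_at, whose suffix marks probes shared with another probe set, read 11.38, 11.20 and 11.40 in knockouts, against 11.37, 11.63 and 11.29 in wild types. Wild type 2 was again the highest, and the difference of -0.10 (SE 0.094) was -0.0024 without it, -0.038 without knockout 2 and -0.13 without knockout 1.

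The third Mapt probe set, 102743_at, was the only member without overlap between genotypes. It read 11.43, 11.51 and 11.49 in knockouts 1 to 3, against 11.53, 11.56 and 11.55 in wild types 1 to 3. All 3 knockouts lay below all 3 wild types, although the gap between the nearest arrays was small beside the spread of the other Mapt probe sets. The difference was -0.075 (95% interval -0.20 to 0.054), or 0.949-fold, with a limma adjusted p of 0.932. It lay between -0.092 and -0.052 with each array left out, smallest in size without knockout 1. Over all probe sets, 6.63% showed this order.

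Map2, a scaffold of dendritic microtubules, was read by 97760_at. Its values were 8.84, 8.89 and 8.56 in knockouts 1 to 3, against 8.78, 8.82 and 9.24 in wild types 1 to 3. Knockout 3 was the lowest and wild type 3 the highest, and the other 4 arrays lay between 8.78 and 8.89. The difference of -0.18 (95% interval -0.46 to 0.098) had a limma adjusted p of 0.927. It was -0.034 without wild type 3, -0.082 without knockout 3 and -0.22 without knockout 1. Map2 was the most variable member, with a residual SD of 0.22 at percentile 98 of all probe sets.

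Map1b, a protein of growing axons whose level is high early in neural development, was read by 99928_at. Its values were 7.80, 7.84 and 7.73 in knockouts, against 7.80, 7.68 and 7.74 in wild types. The groups overlapped in this narrow range, and the difference was 0.047 (95% interval -0.093 to 0.19). It was 0.042 without knockout 1, and single omissions moved it between 0.016 (without wild type 2) and 0.078 (without wild type 1). The Map1b signal was the dimmest of the members, at percentile 28.1 of mean level, while 10 of the 12 lay above percentile 90. Brightness depends on the probes as well as the transcript, so levels were not ranked between genes.

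Dcx encodes doublecortin, which marks migrating and newly born neurons, and like L1cam it lies on the X chromosome. Its probe set 102307_at read 11.77, 11.54 and 11.50 in knockouts 1 to 3, against 11.61, 11.47 and 11.60 in wild types 1 to 3. Knockout 1 was the highest array and the other 5 lay together. The difference was 0.043 (95% interval -0.14 to 0.22), with a limma adjusted p of 0.964. It was -0.038 without knockout 1 and -0.0039 without wild type 2.

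**Figure D3:**
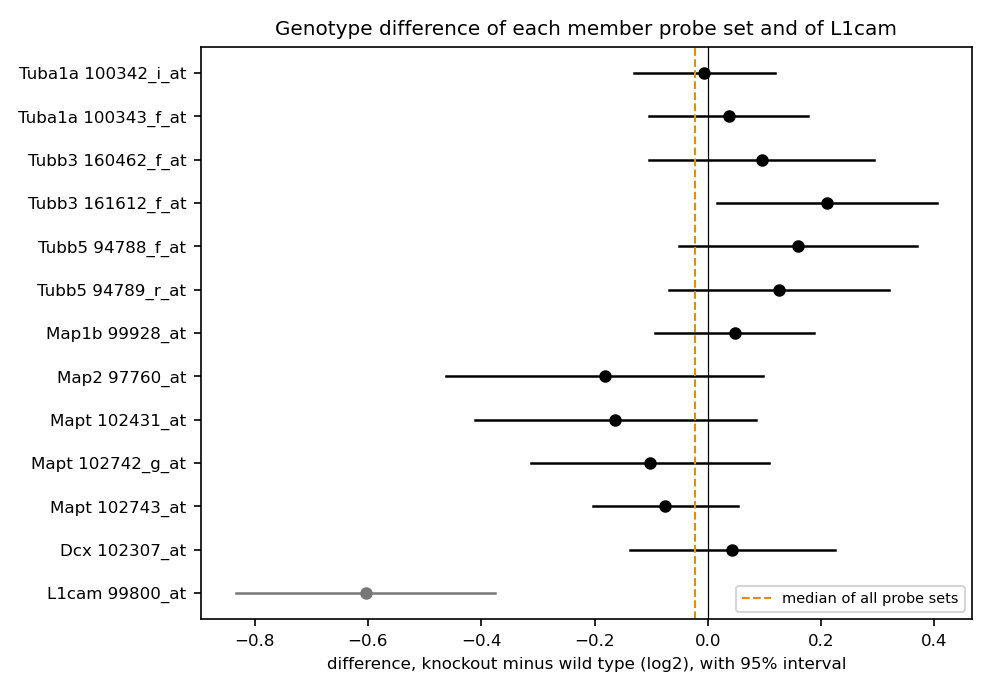
Difference between L1cam knockouts and wild types (log2, x axis) for the 12 member probe sets and L1cam, with 95% intervals from limma. Over all 6 arrays the interval of Tubb3 161612_f_at lies above 0 and those of the other 11 members include 0, while L1cam lies at -0.60.

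**Figure D4:**
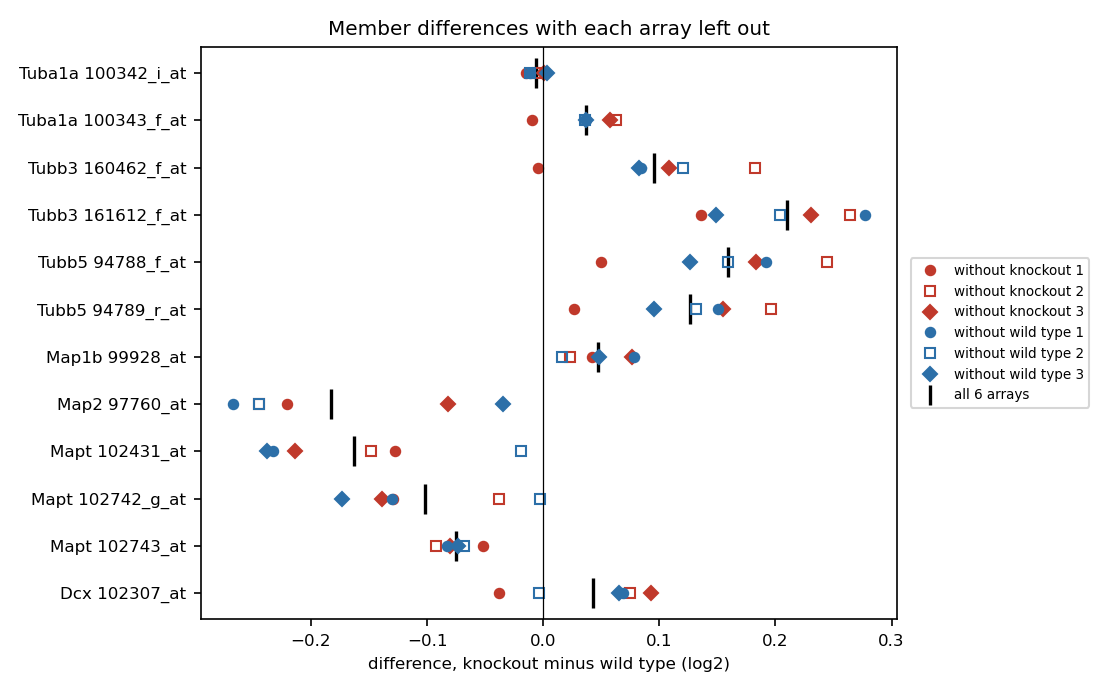
Difference of each member (log2, x axis) over all 6 arrays (black bar) and with 1 array left out (red for a knockout, blue for a wild type). The beta-tubulin values move towards 0 without knockout 1, 2 Mapt values without wild type 2, and Map2 without wild type 3.

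Other microtubule genes were described from 7 lists covering 115 genes and 163 probe sets. None of the 163 passed in limma, and 9 were at an unadjusted p under 0.05, 5 higher and 4 lower in knockouts, which is 5.52% beside 5.08% of all probe sets. Knockout means were higher at 73 and lower at 90 of the 163, and the median was -0.014 beside -0.023 over all probe sets. The groups did not overlap at 9 higher and 9 lower probe sets, 11% beside 10.4% of all. The values below are therefore descriptions, with none past the threshold. List medians moved with single arrays: that of the other tubulins was 0.020 without wild type 3, and without knockout 1 those of the tubulin-folding and dynein lists were 0.0098 and -0.0080.

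Among the other tubulins, 4 of 11 probe sets had a higher knockout mean (median -0.048) and none was at an unadjusted p under 0.05. Gamma-tubulin Tubg1, which nucleates microtubules, differed by -0.082, Tuba8 by -0.071 and Tubb2a by -0.11 at 161614_r_at, a value that was -0.033 without wild type 3. The brighter Tubb2a probe set, 94835_f_at, differed by 0.017, and whether isotypes differ from each other was not tested.

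Enzymes and chaperones that fold and modify tubulin had 17 of 26 probe sets with a higher knockout mean, a median of 0.041, and 3 at an unadjusted p under 0.05, all higher. These 3 belong to the CCT chaperonin, which folds tubulin and actin. Cct3 read 11.03, 10.80 and 10.78 in knockouts 1 to 3 at 98446_s_at, against 10.54, 10.72 and 10.60 in wild types 1 to 3, without overlap. Its difference was 0.25 there, 0.21 at 98153_at and 0.043 at the third probe set, 161238_f_at, where the groups overlapped. That of Cct4 was 0.18. Knockout 1 was the highest array in the 3 with a low p, and without it the differences were 0.17, 0.14 and 0.12, with unadjusted limma p of 0.060, 0.117 and 0.133. Of all 13 CCT probe sets, a group formed after its values were seen, 10 had a higher knockout mean, beside 37.7% of all probe sets. Knockout 1 was the highest array in 9 of the 13, beside 15% of all probe sets. The exceptions were 1 probe set each of Cct2, Cct5, Cct6a and Tcp1.

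Microtubule destabilizers and minus-end proteins had 6 of 19 probe sets with a higher knockout mean (median -0.027) and 3 at an unadjusted p under 0.05, all lower. They were Stmn4, a stathmin that binds free tubulin, at -0.24, Tubgcp4 of the gamma-tubulin complex at -0.20 and the centrosomal protein Nin at -0.17. Stmn4 was -0.15 without knockout 2 and -0.16 without wild type 2, and Nin was -0.10 without wild type 1. Tubgcp4 had a second, dim probe set at 0.0077. Other microtubule-associated proteins had 14 of 27 higher (median 0.0077). The plus-end protein Mapre1 differed by 0.15 at 92350_at, while its other probe sets gave 0.024 and 0.047, Mapre3 by 0.12 and -0.093, and the axon guidance protein Nav1 by -0.13.

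In the motor lists 1 probe set, of Pafah1b3, was at an unadjusted p under 0.05. Of 20 kinesin probe sets 3 had a higher knockout mean (median -0.056), with the light chain Klc1 at -0.14 (97984_i_at), the motor Kif3a at 0.14 (100398_at) and the motor Kif1b at -0.10 (94379_at). The brightest Klc1 probe set differed by 0.056 and another by -0.024, the second Kif3a probe set by -0.12 and the second of Kif1b by -0.089. In the dynein, dynactin and Lis1 list, 17 of 29 were higher (median 0.026). Pafah1b3, a partner of Lis1, differed by -0.31 at the dim probe set 161218_r_at and by 0.056 at 100576_at, and Dync1h1, the dynein heavy chain, by -0.24, which was -0.10 without wild type 3. Ndel1, a partner of Lis1 and dynein, differed by -0.13 at 98882_s_at, while 98883_r_at gave 0.054 and 98884_r_at gave -0.078. Among kinases and phosphatases that act on tau and related proteins, 12 of 31 were higher (median -0.028). The phosphatase subunit Ppp2r5c differed by 0.25, the catalytic subunit Ppp2cb by 0.14 and the kinase Fyn by 0.13. The groups did not overlap at 4 of the 31, these 3 higher and 1 lower, beside 10.4% of all probe sets.

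**Figure D5:**
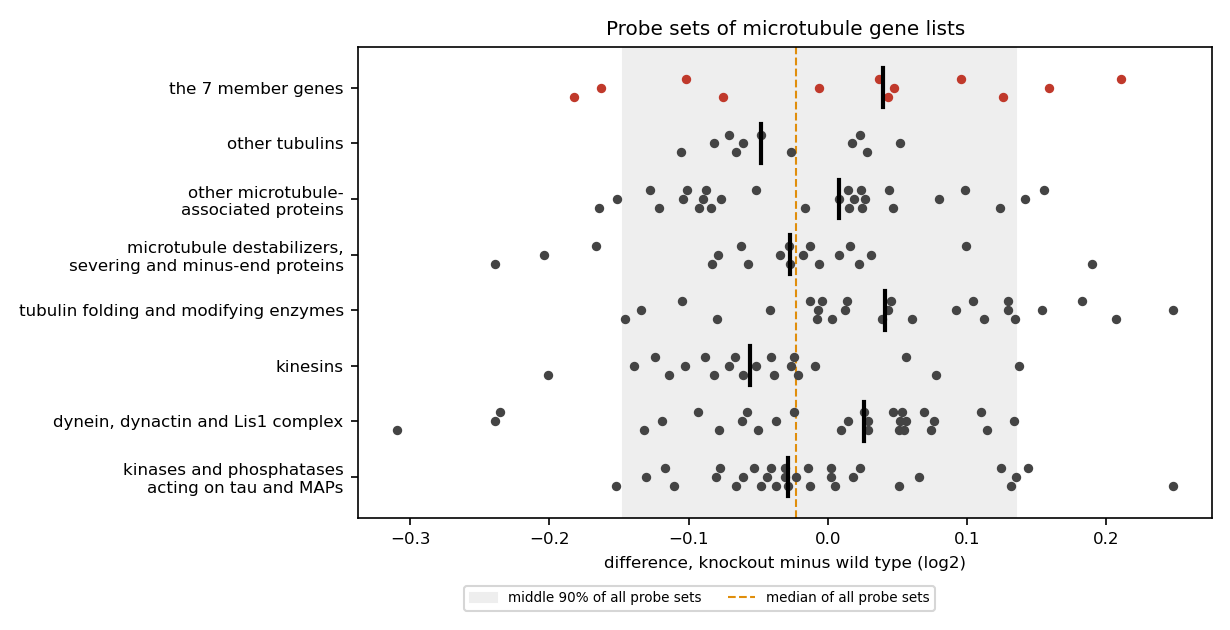
Difference between knockouts and wild types (log2, x axis) for each probe set of the 7 member genes (red) and of 7 microtubule lists (grey points), with list medians as black bars. The grey band holds the middle 90% of all probe sets, from -0.15 to 0.14, and the list medians lie between -0.056 and 0.041.

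The probe set most like the brightest one of each member was looked for over the 6 arrays among 5580 to 5583 other probe sets of above-median level. For Tubb5 it was Stmn1, stathmin, a tubulin-sequestering protein of growing neurons (Pearson r = 0.993). Stmn1 read 14.25, 13.76 and 13.90 in knockouts 1 to 3, against 13.89, 13.76 and 13.69 in wild types 1 to 3 at 97909_at, and its difference of 0.19 was 0.049 without knockout 1. The dimmer Stmn1 probe set, 97910_at (percentile 37.7), differed by -0.063 and was highest in wild type 3. The others were Gm15772 for Tubb3 (r = 0.991), Cdt1 for Map1b (r = 0.977), Cd82 for Map2 (r = 0.976), Slc37a4 for Mapt (r = 0.994) and Serf1 for Dcx (r = 0.976). With 6 arrays such values were common, and 140 probe sets had r above 0.9 with Tubb5. For Tuba1a it was Top3b (r = 0.961), but the Tuba1a probe set spanned only 0.039 log2 units near the top of the scale, so this correlation is not read as likeness.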

How the data were processed

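One Affymetrix Murine Genome U74Av2 array was measured per mouse. Per the submitters' processing notes, the authors processed the arrays with RMA, and the deposited values are log2 expression values. RMA subtracts background, scales arrays to 1 distribution and merges the probes of a probe set, so a change in total RNA per cell cannot be read from them. Its version and settings are not stated in the labels or the file, and scanner files were not used here.

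Of 12488 probe sets, 66 array controls were set aside and 12422 were tested. The array annotation supplied 1 symbol for 10833 of these, several for 396 and none for 1193. Genotypes were compared with limma 3.58.1 (R 4.3.3; lmFit, eBayes; knockout minus wild type, 2-sided) on the deposited values. P-values were adjusted by Benjamini-Hochberg over the whole table, with a threshold of 0.05. Each probe set was kept apart. Gene lists were described by counts and medians, with no test of a list. The genes named were the members, L1cam, from each of the 7 microtubule lists the 3 probe sets lowest in unadjusted p, and for the brightest probe set of each member the probe set of another gene with the highest Pearson correlation over 6 arrays, searched among those with 1 symbol and a mean level above the median. Genes outside this rule (Tubb2a 94835_f_at, further probe sets of named genes, other CCT subunits, and markers) were chosen after their values were seen. The members and lists were chosen with earlier results of these data known. The procedure was run on simulated data with independent noise and planted changes. Those data held no shift of a single array, so the run cannot show how the procedure handles one.

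Other settings were quantile normalization, median centring, a trended robust variance, leaving out the dimmest probe sets (mean under the 40th percentile), the replicate number as a block, omission of each array in turn, averaging a gene's probe sets, leaving out those with a cross-hybridization suffix, and a threshold of 0.1. Arrays carry no read depth, and their number limits the precision. Each array was taken as 1 mouse, since the design text gives 3 mice per genotype. Deviations of samples with the same replicate number had correlations of 0.16, -0.32 and 0.17 over all probe sets. Those with different numbers ran from -0.40 to 0.24. With 3 arrays centred within each genotype, these values cannot decide whether the numbers mark pairs. No source says that they do, and they were not taken as pairs.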

Additional observations from a re-analysis of the deposited data

How the results depend on the processing

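No member probe set and no probe set of the microtubule lists passed under any of the 14 other settings, and the lowest limma adjusted p of a member was 0.571. Over the whole array the count was 0, and between 0 and 1 with each array left out. With the replicate number as a block 0 passed, the smallest adjusted p being 0.196, and that block changed no call. With 1 value per gene, the mean of both Tuba1a probe sets differed by 0.015. Tuba1a 100342_i_at itself turned to 0.026 after median centring and ran from -0.015 to 0.0034 over single omissions. Others that turned did so only in single omissions: Tuba1a 100343_f_at ran from -0.0098 to 0.063, Tubb3 160462_f_at from -0.0040 to 0.18 and Dcx from -0.038 to 0.093. Top3b turned to 0.0023 after median centring and ran from -0.065 to 0.024 over single omissions, and Serf1 ran from -0.056 to 0.058. The median over all probe sets was -0.0041 after quantile normalization and 0.0089 after median centring. Among probe sets with an unadjusted p under 0.05, the share higher in knockouts was 48.3% in the deposited values, 66% with quantile normalization and 79.1% with median centring. Their count of 631 among 12422 tested was 1078 without knockout 2 and 395 without wild type 3. With the filter on dim probe sets it was 401 among the 7454 left. The median member difference of 0.040 was -0.012 without knockout 1 and -0.075 over the 5 members without a cross-hybridization suffix. Over single omissions the list medians ran from -0.061 to 0.020 for the other tubulins, -0.028 to 0.00072 for other microtubule-associated proteins, -0.069 to -0.0058 for destabilizers, 0.0098 to 0.059 for tubulin folding, -0.082 to -0.032 for kinesins, -0.0080 to 0.047 for dynein and -0.041 to -0.0098 for kinases and phosphatases. Mapre3 was 0.077 without knockout 1, Kif3a 0.074 without knockout 2, Klc1 -0.080 without knockout 3, Tuba8 -0.044 without knockout 1 and Tubg1 -0.054 without wild type 2. Median centring put the list median of the other tubulins at -0.016, that of destabilizers at 0.0044 and that of kinases and phosphatases at 0.0033. The causes were not tested. The files hold no detection calls, so dim signals such as Map1b have no stated background.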

Other observations

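Neurofilament genes, which encode the other main polymer of the neuronal cytoskeleton, had lower knockout means at all 7 probe sets (median -0.080), beside 62.3% of all probe sets. Nefh differed by -0.12, Nefm by -0.080 and Nefl by -0.013, 2 of the 7 were lower without overlap beside 6.63% of all probe sets, and none was at an unadjusted p under 0.05 in limma. Oligodendrocyte markers had lower means at 13 of 14 probe sets (median -0.13), with Mobp between -0.37 and -0.18 at 4 probe sets and Mbp at -0.14 and 0.015. None of the 14 was at an unadjusted p under 0.05 in limma, and the groups overlapped at all of them. Of the 14 immature neuron probe sets 8 were higher (median 0.037), with Crmp1 at 0.26, Gap43 at 0.18 and Sox11 at -0.52 and -0.41. At an unadjusted limma p under 0.05 were 2 higher and 2 lower, beside 5.08% of all probe sets. The groups did not overlap at 4 of the 14, beside 10.4% of all probe sets.

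Granule neuron markers had 3 of 11 probe sets higher (median -0.050), Purkinje markers 3 of 11 (median -0.040), astrocyte and Bergmann glia markers 6 of 13 (median -0.0009), microglia markers 6 of 12 (median -0.019), endothelial markers 4 of 8 (median 0.024), choroid plexus markers 3 of 5 (median 0.055) and cell cycle markers 5 of 15 (median -0.043). No probe set of these lists passed the threshold in limma.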
